A study of Homo sapiens with 12 samples.

Results

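Baseline expression was compared between cultures labelled as 2 established lymphoma lines, JeKo-1 and Granta-519. The untreated cultures come from a study of chidamide, an inhibitor of histone deacetylases. The members are the vehicle libraries of that study, taken by their treatment and cell-line labels: 3 labelled JeKo-1 and 3 labelled Granta-519, which is 6 of 12 libraries. All 6 came from cells grown in RPMI1640 medium with serum and given vehicle for 12 h, and the other 6 from cells given 4 µM chidamide for the same time. Polyadenylated RNA was sequenced and counted per gene symbol. Each group was labelled as 1 established line. The labels leave it unstated whether the replicates of a group were separate cultures, so a p-value here reflects the scatter of libraries, possibly technical. No spike-in RNA was named, which makes each level a share of its library.

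Both lines were derived from mantle cell lymphoma, a cancer of mature B cells in which a translocation usually places the cyclin gene CCND1 under an immunoglobulin enhancer and in which the transcription factor SOX11 is usually present. Normal B cells pass from a resting state through the germinal centre, where BCL6 holds the programme, and then towards plasma cells under IRF4 and PRDM1. Lymphoma lines keep much of the state at which they arose, and they also lose genes by deletion or by silencing of promoters.

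The 6 vehicle libraries held 12873642 to 15676405 counts. Those labelled JeKo-1 had a count for 14439 to 15029 genes and those of Granta-519 for 17304 to 17572 genes, so fewer genes were detected under the JeKo-1 label at a like depth. Levels are given as CPM, counts divided by library size and multiplied by 1000000, with sizes scaled by TMM, the trimmed mean of M-values. Within a group no library pair agreed within sampling noise, and pairs with JeKo-1 label replicate 2 were the farthest apart. In RNA from bulk cultures, fewer cells with a transcript and less of it per cell cannot be told apart.

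The label JeKo-1 was checked against the genes that define the disease. SOX11 had 0 counts in all 3 libraries labelled JeKo-1, which allows up to 0.0749 CPM over the group (3 counts, counting error only), and 165, 155 and 150.0 CPM in Granta-519. CCND1 had 5 counts in all under the label and 2152, 2121 and 2067 CPM in Granta-519. Every Granta-519 library was far above every library labelled JeKo-1 for both genes. Both are known in JeKo-1 cells, so the values go against that label, and the name is used below only as the label of these libraries. The B-cell genes PAX5 (547 ± 22.7 against 693 ± 26.1 CPM), CD79A (756 ± 59.8 against 613 ± 14.3 CPM) and MS4A1, which encodes CD20 (499 ± 25.9 against 1446 ± 111 CPM), were present in both (mean ± SD, n = 3 libraries each). CD5, a T-cell antigen usually present on mantle cell lymphoma, stood at 0.150 ± 0.130 CPM under the label and 1.06 ± 0.127 CPM in Granta-519, low in both.

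Of the 16 genes listed as typical of mantle cell lymphoma, 14 were higher in Granta-519 and 1 was higher under the JeKo-1 label. At least 2-fold higher in Granta-519 were 13 (81.2%), beside 26.3% of all tested genes. The median log2 difference of the list, JeKo-1 label minus Granta-519, was −8.30. The list also held the cannabinoid receptor gene CNR1 (0.606 ± 0.312 against 144 ± 7.69 CPM) and the actin-binding genes DBN1 and CNN3, all higher in Granta-519. HDGFRP3 had 0 counts under the label and 109 ± 2.03 CPM in Granta-519, and PON2, a paraoxonase gene, had 0 counts against 45.6 ± 2.66 CPM. RNGTT stood at 75.5 ± 1.94 and 73.6 ± 4.23 CPM and did not pass the test.

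**Figure D1:**
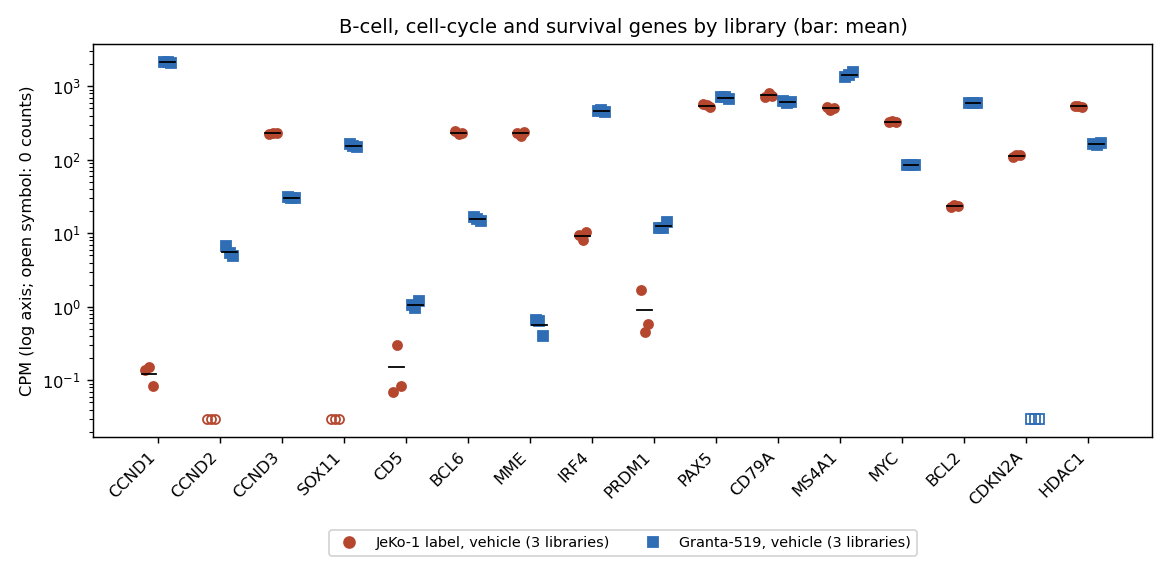
Level of 16 B-cell, cell-cycle and survival genes in CPM on a log axis, for 3 vehicle libraries labelled JeKo-1 (circles) and 3 of Granta-519 (squares), with the group mean as a bar and libraries with 0 counts as open symbols at the foot. SOX11 and CCND2 lie at 0 under the JeKo-1 label, CDKN2A lies at 0 in Granta-519, and PAX5, CD79A and MS4A1 are high in all 6 libraries.

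Across all genes the lines differed widely. Of 15087 genes tested with edgeR's quasi-likelihood test, 5350 (35.5%) were higher under the JeKo-1 label and 6688 (44.3%) were higher in Granta-519 at a Benjamini-Hochberg adjusted p under 0.05, which is 12038 genes (79.8%) in either direction. At a difference of at least 2-fold, 1932 genes (12.8%) were higher under the label and 3969 (26.3%) in Granta-519, 5901 (39.1%) in all. These shares are the background for every gene group below. The median log2 difference over all tested genes was −0.13, and scaling by library totals instead moved it by a further −0.137. With a common biological coefficient of variation of 0.0422, small differences passed the test. The groups below are described mainly by the 2-fold counts.

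Genes at 20 CPM or more in each library of the higher line were ranked by the fitted log2 difference, which for a gene at 0 counts depends on the prior count of the fit. The first 10 in favour of Granta-519 all had 0 counts under the JeKo-1 label, and CCND1, with 5 counts there and a log2 difference of −13.95, and SDC1, with 1 count, came after them although their ratios of levels exceeded the lower bounds of several of the 10. HIPK2, a nuclear serine/threonine kinase, was at 436 ± 23.5 CPM in Granta-519, at least 5818-fold higher. NETO1, an auxiliary subunit gene of glutamate receptors, was at 215 ± 2.36 CPM (at least 2875-fold higher) and ITM2C at 212 ± 9.35 CPM (at least 2835-fold). CD24, a B-cell surface sialoprotein with near-identical copies in the genome, stood at 189.7 ± 8.18 CPM, APP, the amyloid precursor, at 177 ± 5.38 CPM and PTPRS, a receptor phosphatase, at 169 ± 12.5 CPM. BTNL9 (174 ± 6.61 CPM), CHML (141 ± 4.16 CPM) and EPB41L2 (137 ± 3.35 CPM) were also among the 10, with SOX11. In the other direction CDKN2A, MTAP and COBLL1 came first in this ranking, with 0 counts in Granta-519, and are described with the silent genes below. BMP7, a secreted bone morphogenetic protein chosen after its values were seen, lay outside the first 10 with 1 count in Granta-519, at 79.6, 88.2 and 77.8 CPM under the label, a ratio of 3782 (95% counting interval 678 to 149429).

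**Figure D2:**
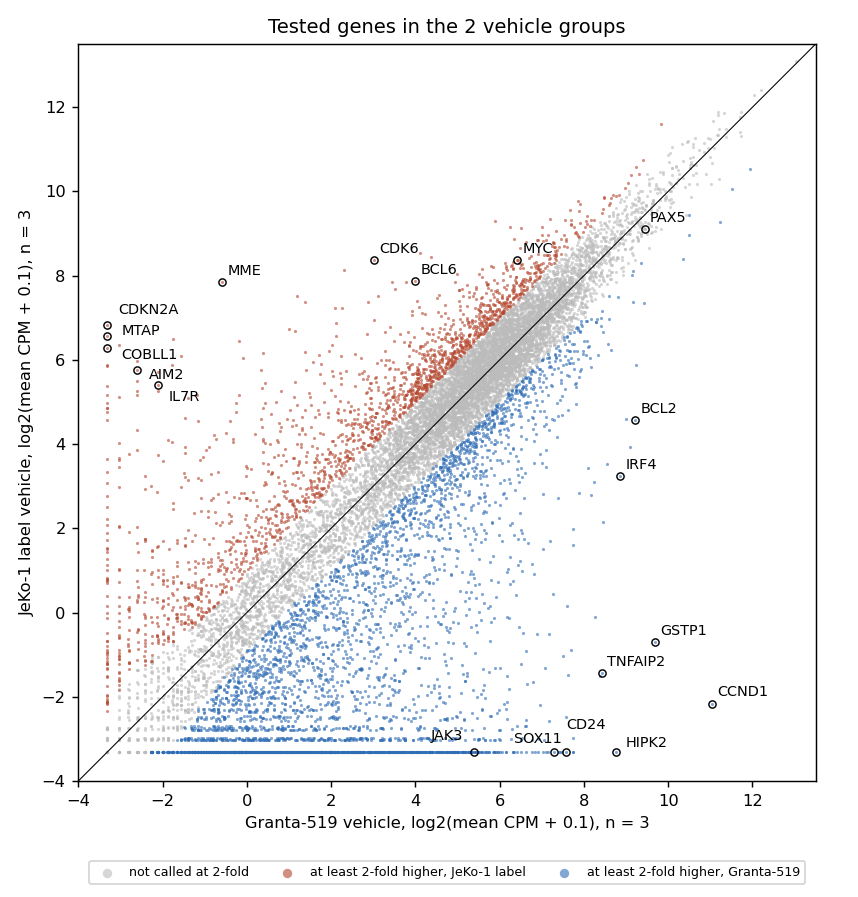
Each point is 1 of 15087 tested genes, with the mean level of 3 Granta-519 vehicle libraries on the horizontal axis and of 3 vehicle libraries labelled JeKo-1 on the vertical axis, both as log2 of CPM plus 0.1. The row of points along the lower edge holds genes with 0 counts under the JeKo-1 label, and it is fuller than the column of genes with 0 counts in Granta-519 along the left edge.

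Genes without any count in 1 line were counted by 1 rule: 0 counts in all 3 vehicle libraries of that line and at least 5 CPM in every vehicle library of the other. Under the JeKo-1 label 349 of the 10302 genes at that level in Granta-519 were silent (3.39%). In Granta-519 25 of the 9446 genes at that level under the label were silent (0.265%). Leaving out 1 gene that is not named, the other 348 genes silent under the JeKo-1 label had levels in Granta-519 of 5.53 to 436 CPM, with a median of 15.7 CPM, and 14 of them reached 100 CPM there. In Granta-519 9 of the silent genes are counted but not named. Of the 349 genes, 344 matched the RefSeq table, which lists 327 as protein coding.

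Several of the silent genes encode signalling proteins of lymphocytes. JAK3, the kinase that works with the common gamma chain of cytokine receptors, had 0 counts under the JeKo-1 label and 44.5, 42.2 and 39.1 CPM in Granta-519 (at least 559.9-fold higher). Receptor genes among them were IL27RA (98.8 ± 0.392 CPM in Granta-519), IL13RA1 (58.4 ± 2.05 CPM), the WNT coreceptor LRP6 (59.2 ± 0.420 CPM) and S1PR1 (17.4 ± 1.03 CPM), which guides lymphocytes out of lymphoid tissue. Enzyme genes were the glutamine synthetase GLUL (70.6 ± 2.85 CPM), the microsomal glutathione transferase MGST1 (78.9 ± 7.88 CPM) and the DNA demethylase TET1 (12.2 ± 0.441 CPM). In all, 25 of the 348 named silent genes belonged to a gene list of this report. The share of all genes at 5 CPM or more in Granta-519 that belong to a list is not given here. The count therefore shows no lean of the silent genes towards the lists.

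Promoters of the silent genes are shown by the 250 bases before the RefSeq start (GRCh38.p14), 5′ to 3′ on the gene's strand, for 3 genes that span few to many CG dinucleotides, the site of cytosine methylation. Capitals mark each CG, which reads the same on both strands. JAK3 (chr19:17847983-17848232, minus strand) holds 10 CG, PTPRS (chr19:5340813-5341062, minus strand) 44 and MTAP (chr9:21802386-21802635, plus strand), which is silent in Granta-519, 11. Bases just after the start were found in a transcript of the GENCODE annotation for JAK3 and MTAP but not for PTPRS.
JAK3: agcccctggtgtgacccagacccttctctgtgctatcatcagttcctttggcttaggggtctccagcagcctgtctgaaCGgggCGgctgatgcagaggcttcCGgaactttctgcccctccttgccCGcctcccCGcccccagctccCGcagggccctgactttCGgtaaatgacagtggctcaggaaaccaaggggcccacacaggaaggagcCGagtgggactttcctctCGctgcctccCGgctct
PTPRS: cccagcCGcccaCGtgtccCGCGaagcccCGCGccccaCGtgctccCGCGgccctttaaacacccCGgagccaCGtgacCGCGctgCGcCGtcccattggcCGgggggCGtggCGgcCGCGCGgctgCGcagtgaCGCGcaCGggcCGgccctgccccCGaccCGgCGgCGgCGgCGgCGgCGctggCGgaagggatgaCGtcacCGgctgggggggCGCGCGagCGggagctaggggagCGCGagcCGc
MTAP: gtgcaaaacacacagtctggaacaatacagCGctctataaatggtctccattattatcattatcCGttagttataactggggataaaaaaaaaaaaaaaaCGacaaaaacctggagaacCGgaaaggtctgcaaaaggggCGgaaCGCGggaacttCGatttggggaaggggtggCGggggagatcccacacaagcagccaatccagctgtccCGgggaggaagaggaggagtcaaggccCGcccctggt

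Such a promoter was found for 270 of the 349 genes silent under the JeKo-1 label, with a median of 20 CG and a median GC content of 65.8%. The 8213 other genes at 5 CPM or more in Granta-519 with a promoter in the table had a median of 21 CG and 65.2% GC. Fewer than 10 CG were found in 20% of the silent and 12.3% of the other promoters, and at least 1 CG in 98.9% and 99.4%, against 93.6% of all 27305 promoters in the table. The middle of the distribution was thus nearly the same in both sets, while more of the silent promoters were poor in CG. Methylation was not measured.

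The drug libraries, which the rule for silent genes does not use, were read for the same genes. Of the 349 genes, 185 (53%) also had 0 counts over the 3 chidamide libraries labelled JeKo-1, 121 had 1 to 9 counts and 43 (12.3%) had 10 or more. MOB3B, chosen with its values seen for the highest number, had 90 counts over those 3 libraries, followed by CAV1, which encodes caveolin (59), and the VEGF receptor gene FLT1 (56). SOX11, JAK3, GLUL, MGST1 and LRP6 stayed at 0 counts in all 6 libraries under the label, and HIPK2 had 18 counts after the drug. Of the 25 genes silent in Granta-519, 21 (84%) stayed at 0 counts after chidamide and 1 had 10 or more, ZNF860 with 42. These 25 include the 9 genes that are not named. The chidamide libraries had a count for more genes in general than the vehicle libraries, 16889 to 17070 under the JeKo-1 label and 18766 to 18790 in Granta-519. The same shares among all genes at 0 counts in vehicle are not given here, so those above describe the silent genes alone.

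**Figure D3:**
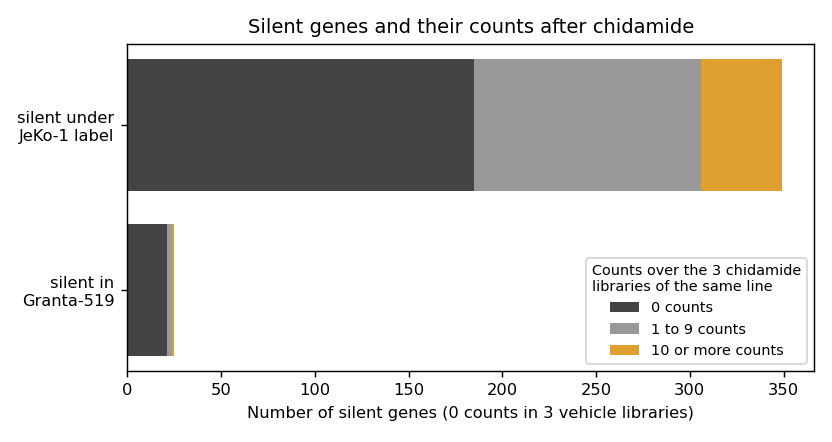
Number of genes silent in the vehicle libraries of each line (horizontal axis), divided by their summed counts over the 3 chidamide libraries of the same line. Of 349 genes silent under the JeKo-1 label 185 stayed at 0 counts and 43 reached 10 or more, and of 25 silent in Granta-519 21 stayed at 0 counts.

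By name and place, the genes silent under the JeKo-1 label held many zinc finger genes. These groupings were chosen with the values seen, and have no test. ZNF-named genes, most of which encode DNA-binding repressors, made up 28 of the 349 (8.02%), against 364 (3.53%) of the 10302 genes at 5 CPM or more in Granta-519. On chromosome 19, where many zinc finger genes lie, were 41 (11.7%, against 7.53%), and on chromosome X 25 (7.16%, against 3.36%). In RefSeq gene order, among genes with at least 1 CPM in either line, 62 of the silent genes lay in 29 runs of at least 2 neighbours, 8 of them on chromosome 19 and 5 on chromosome X. Runs that hold a gene not named were left out, for both lines. The longest was ZNF606, ZNF135, ZSCAN18 and ZNF329, at 10.1 ± 0.880, 6.35 ± 0.222, 28.5 ± 1.79 and 10.6 ± 0.463 CPM in Granta-519. Runs of 3 were CDH2, DSG2 and B4GALT6 on chromosome 18, which include the cadherins of N-cadherin and desmoglein type, and GUCY1A3, GUCY1B3 and CTSO on chromosome 4, which include both subunits of soluble guanylate cyclase. Some pairs, such as ADARB2 with its antisense gene, ZNF667 with its antisense gene, ARHGEF5 with ARHGEF34P, and FAM127A with FAM127B, overlap or are near-identical, so that their counts could be shared.

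Among runs without an unnamed gene, Granta-519 had 1 run of silent neighbours, KLHL9, MTAP and CDKN2A on chromosome 9. CDKN2A, which encodes the cell-cycle inhibitors p16 and ARF, was at 108, 118 and 116 CPM under the JeKo-1 label and 0 counts in all 6 Granta-519 libraries, at least 1751-fold higher under the label. MTAP, the enzyme that salvages methylthioadenosine and often lost together with CDKN2A in cancers, was at 96.8, 88.9 and 96.4 CPM under the label (at least 1448-fold higher). KLHL9, an adaptor of a ubiquitin ligase, was at 12.5 ± 1.20 CPM. The neighbouring inhibitor gene CDKN2B was at 1.58 ± 0.216 CPM under the label and had 0 counts in the Granta-519 vehicle libraries. Copy number was not measured. The other genes silent in Granta-519 with the highest levels under the label were COBLL1 (77.6 ± 4.64 CPM), the inflammasome-family gene NLRP4 (58.5 ± 0.508 CPM), PLEKHA5 (58.1 ± 1.92 CPM), the pseudogene BMS1P20 (41.2 ± 0.994 CPM), the riboflavin transporter gene SLC52A3 (35.8 ± 2.46 CPM), CADPS, CXorf57 and WASF3.

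Germinal-centre genes were mostly higher under the JeKo-1 label. Of 29 tested, 19 were higher under the label and 6 in Granta-519, and at 2-fold the counts were 16 and 3, for a median log2 difference of 1.27. The 16 are 55.2% of the list, beside 12.8% of all tested genes. MME, which encodes the surface peptidase CD10, was at 234, 212 and 242 CPM under the label and 0.651, 0.633 and 0.400 CPM in Granta-519 (log2 difference 8.65 ± 0.13). BCL6, the master repressor of the germinal centre, was at 246, 227 and 229 CPM against 16.9, 15.7 and 14.9 CPM (log2 difference 3.89 ± 0.06). No library of 1 line overlapped the other for these genes. The share of all tested genes without overlap is not given here, and 79.8% of them passed the threshold of the test. RGS13, a brake on chemokine signalling (165 ± 23.6 against 2.49 ± 0.368 CPM), and S1PR2, which confines cells to the follicle (195 ± 3.45 against 38.3 ± 5.46 CPM), were also higher under the label. LMO2 (0.515 ± 0.252 against 3.28 ± 0.807 CPM) and CCDC50 (27.8 ± 0.541 against 197 ± 3.52 CPM) went the other way. All 6 genes named with values and called here had an edgeR adjusted p of 3.81e-10 or lower.

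Genes of activated B cells and plasma cells were mostly higher in Granta-519, 22 of 28 tested against 5 higher under the JeKo-1 label, with 16 and 4 at 2-fold and a median of −1.18. The share at 2-fold in Granta-519 was 57.1%, beside 26.3% of all tested genes. IRF4, which drives plasma cell fate, was at 9.57, 8.10 and 10.3 CPM under the label and 468, 471 and 449 CPM in Granta-519 (log2 difference −5.64 ± 0.06). PRDM1, the repressor BLIMP1, was at 1.71, 0.450 and 0.580 CPM against 11.7, 11.7 and 14.3 CPM (log2 difference −3.71 ± 0.22). SDC1, the plasma cell antigen CD138, had 1 count under the label and stood at 91.6 ± 5.89 CPM in Granta-519, a ratio of 3666 (95% counting interval 658 to 144828) for Granta-519 over the label. The adhesion receptor gene CD44 was at 97.4 ± 4.75 CPM in Granta-519 and had 2 counts in all under the label. JCHAIN, the joining chain of secreted antibody, went against the group at 463 ± 43.6 CPM under the label and 119 ± 5.29 CPM in Granta-519, as did the kinase gene PIM2 (128 ± 5.62 against 27.4 ± 0.133 CPM). For these 6 genes the highest edgeR adjusted p was 6.23e-22.

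Transcription factors of B-cell identity were divided, 17 of 30 higher under the JeKo-1 label and 11 in Granta-519, with 6 and 7 at 2-fold (20% and 23.3%, beside 12.8% and 26.3%). FOXO1, which sustains dark-zone germinal-centre cells, was at 94.8 ± 2.40 against 4.25 ± 0.865 CPM (log2 difference 4.48 ± 0.09). FOXP1 (34.6 ± 2.11 against 2.70 ± 0.256 CPM) and TOX, at 34.7 ± 3.96 CPM under the label and 1 count in Granta-519, were also higher under the label. Apart from IRF4 and KLF2, which had 0 counts under the label, the factors higher in Granta-519 included ID2 (6.02 ± 1.19 against 59.0 ± 2.67 CPM), an inhibitor of E proteins, and LEF1 (0.299 ± 0.0646 against 3.80 ± 0.421 CPM). PAX5, which maintains B-cell identity, differed by only −0.34 ± 0.04 on the log2 scale and EBF1 stood at 38.1 ± 0.564 and 41.3 ± 3.18 CPM, below the threshold of the test except in 5 of its alternatives. Of 6 tested genes of an immunoglobulin and surrogate light chain list, 3 were higher under the label and 2 in Granta-519, with 2 (33.3%) each at 2-fold. The light-chain-like gene IGLL5 was higher under the label (399.9 ± 23.0 against 89.9 ± 1.66 CPM), and DNTT went the other way. The heavy and light chain constant genes looked for were not in the table. The highest adjusted p among the 7 called genes with values was 6.3e-12 by edgeR.

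**Figure D4:**
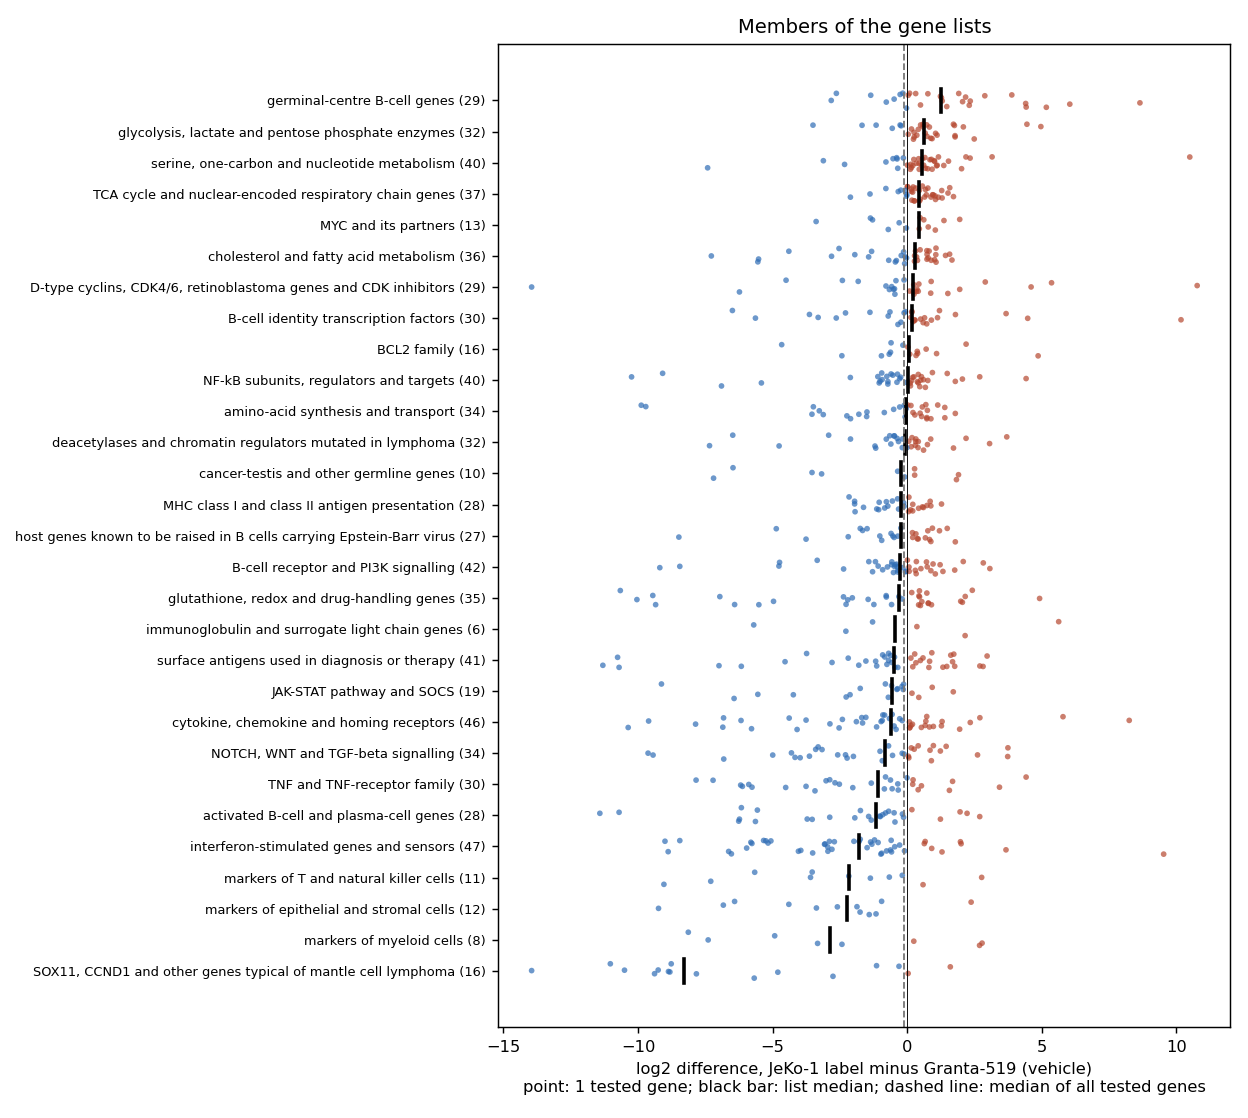
Log2 difference, JeKo-1 label minus Granta-519, of the tested members of each list with at least 5 of them (1 point per gene, number tested in brackets), with the list median as a black bar, the median of all tested genes as a dashed line, and a line with 0 counts set to its floor of 3 counts. The germinal-centre list has the highest median, at 1.27, and the mantle cell list the lowest, at −8.30.

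Of the B-cell receptor and PI3K signalling genes, all 42 were tested. Of these, 15 were higher under the JeKo-1 label and 22 in Granta-519, with 7 and 10 at 2-fold and a median of −0.25. The 2-fold shares, 16.7% and 23.8%, were near those of all tested genes. CD79B, a signalling chain of the receptor, was at 607, 699 and 606 CPM against 188, 195 and 179 CPM (log2 difference 1.77 ± 0.05), and BANK1 and FYN were also more than 2-fold higher under the label. PTPN6, the phosphatase SHP-1 that damps receptor signals, was at 62.7, 59.2 and 54.9 CPM under the label and 616, 603 and 577 CPM in Granta-519 (log2 difference −3.34 ± 0.05). LAT2, an adaptor, was at 42.9 ± 4.54 against 221 ± 2.18 CPM. SYK (425 ± 9.89 against 259 ± 3.63 CPM) and BTK (165 ± 6.78 against 130.1 ± 7.50 CPM), kinases just below the receptor, were higher under the label by less than 2-fold. LYN and BLK, other kinases near the receptor, and the adaptor gene BLNK lay the other way, LYN and BLNK by more than 2-fold. Called genes with values numbered 5, each with an edgeR adjusted p no higher than 9.92e-09.

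NF-kB subunits, regulators and targets were split evenly, 18 of 40 higher under the JeKo-1 label and 19 in Granta-519, with 5 and 8 at 2-fold and a median of 0.04, whose sign reversed under upper-quartile and library-total scaling. The 2-fold shares, 12.5% and 20%, did not exceed those of all tested genes. Subunit genes differed by less than 2-fold: RELA was at 106 ± 6.33 against 76.8 ± 2.77 CPM and NFKB2 at 221 ± 13.1 against 373 ± 20.4 CPM. Among the targets, LTB, which encodes lymphotoxin beta, was at 211, 245 and 232 CPM against 10.9, 11.8 and 9.46 CPM (log2 difference 4.42 ± 0.07), and BIRC3, an inhibitor of apoptosis, was at 831 ± 62.9 against 240.4 ± 15.1 CPM. The chemokine gene CCL3, by contrast, was at 1.57, 1.20 and 0.994 CPM under the label and 143, 155 and 160.1 CPM in Granta-519 (log2 difference −6.90 ± 0.11), and TNFAIP2 at 0.269 ± 0.184 against 342 ± 7.57 CPM. In the TNF and TNF-receptor family, 20 of 30 tested members were higher in Granta-519, 15 of them at 2-fold, and 7 under the label, with a median of −1.09 and a 2-fold share in Granta-519 of 50%. TNFRSF1B, a TNF receptor gene, was at 0.507 ± 0.238 against 35.4 ± 0.646 CPM, and TNFSF14 and TNFRSF18 had 0 counts under the label. A list of host genes known to be raised in B cells carrying Epstein-Barr virus was even, with 13 of 27 higher in each line and 3 under the label against 8 in Granta-519 at 2-fold (11.1% and 29.6%, near the background). MARCKS (0.835 ± 0.230 against 306 ± 25.3 CPM), FSCN1 (1.47 ± 0.518 against 42.4 ± 1.05 CPM) and FCER2, which encodes CD23 (83.0 ± 5.63 against 379 ± 10.5 CPM), were higher in Granta-519 by at least 2-fold. The 10 genes with levels given here that differed passed edgeR's quasi-likelihood test at an adjusted p of 3.55e-11 or lower.

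Cytokine, chemokine and homing receptors were more often higher in Granta-519, 26 of 46 tested against 15, with 18 and 7 at 2-fold and a median of −0.61 (39.1% at 2-fold in Granta-519, beside 26.3% of all tested genes). IL7R, the receptor for interleukin 7, was at 44.6, 39.2 and 42.5 CPM under the JeKo-1 label and 0, 0.190 and 0.200 CPM in Granta-519 (log2 difference 8.25 ± 0.21). CXCR5, which guides B cells into follicles, was at 103, 113 and 101 CPM against 2.34, 1.33 and 2.07 CPM (log2 difference 5.79 ± 0.10). CCR6, a chemokine receptor, was higher in Granta-519 (0.517 ± 0.339 against 7.19 ± 0.167 CPM). Of the 19 JAK-STAT genes, 14 were higher in Granta-519 and 4 under the label, with 7 (36.8%) and 1 at 2-fold. JAK1 (147 ± 4.64 against 44.7 ± 0.571 CPM) was higher under the label, whereas JAK3 was silent there and STAT5A was at 4.86 ± 0.950 against 23.2 ± 3.18 CPM. The feedback inhibitor genes SOCS2 and CISH had 0 counts under the label and 65 and 162 counts over the Granta-519 libraries. All 7 genes named with values and called here had an edgeR adjusted p of 1.6e-09 or lower.

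Of 34 tested genes of NOTCH, WNT and TGF-beta signalling, 21 were higher in Granta-519 and 10 under the JeKo-1 label, with 16 (47.1%) and 5 at 2-fold and a median of −0.81. NOTCH1 and NOTCH2 went opposite ways. NOTCH1 was at 52.3, 59.1 and 52.3 CPM under the label and 229, 218 and 206 CPM in Granta-519 (log2 difference −2.00 ± 0.05), while NOTCH2 was at 52.1, 52.4 and 55.1 CPM against 3.65, 4.49 and 3.73 CPM (log2 difference 3.74 ± 0.09). The NOTCH target gene NRARP was at 2.32 ± 0.364 against 45.4 ± 2.83 CPM and the ubiquitin ligase gene DTX1, another NOTCH target, at 560.2 ± 33.0 against 91.4 ± 2.83 CPM. SMAD7, the inhibitor of TGF-beta receptors, was higher in Granta-519 (3.44 ± 0.989 against 35.9 ± 0.506 CPM). For these 5 genes the highest edgeR adjusted p was 3.44e-32.

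Surface antigens used in diagnosis or therapy were higher in Granta-519 for 23 of 41 genes and under the JeKo-1 label for 17, with 13 (31.7%) and 9 (22%) at 2-fold. MS4A1 (CD20) was at 522, 471 and 505 CPM under the label and 1352, 1418 and 1569 CPM in Granta-519 (log2 difference −1.53 ± 0.04). ROR1, a receptor targeted in mantle cell lymphoma, was at 17.2 ± 1.09 against 5.18 ± 0.657 CPM. The costimulatory gene CD86 was higher under the label (51.6 ± 3.78 against 6.57 ± 0.607 CPM), whereas CD274, which encodes the checkpoint ligand PD-L1, was higher in Granta-519 (1.09 ± 0.590 against 26.2 ± 3.62 CPM), with FCRL5 (2.94 ± 0.604 against 213 ± 4.48 CPM), CD200 (0.164 ± 0.171 against 23.3 ± 2.28 CPM) and CD9. The highest adjusted p among the 6 called genes with values was 3.38e-18 by edgeR.

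Interferon-stimulated genes and nucleic acid sensors were mostly higher in Granta-519: 36 of 47 tested against 8 under the JeKo-1 label, with 30 and 5 at 2-fold and a median of −1.78. The 30 are 63.8% of those tested, beside 26.3% of all genes. IFIT3, an antiviral effector, was at 3.35, 2.62 and 3.15 CPM under the label and 99.3, 103 and 104 CPM in Granta-519 (log2 difference −5.06 ± 0.09). PARP14 was at 0.216 ± 0.130 against 109.8 ± 3.42 CPM and MX2, an antiviral GTPase, at 0.123 ± 0.157 against 68.1 ± 3.85 CPM. Sensors of DNA took both sides: TMEM173, which encodes STING, had 0 counts under the label (7.43 ± 1.06 CPM in Granta-519) and MB21D1, the sensor cGAS that feeds it, was at 0.404 ± 0.0817 against 25.5 ± 0.801 CPM. AIM2, another DNA sensor, was at 56.9, 51.9 and 54.0 CPM under the label and 0, 0.190 and 0 CPM in Granta-519, a ratio of 836 (95% counting interval 286 to 4059). OAS1 was also higher under the label (21.1 ± 0.497 against 1.64 ± 0.270 CPM). Called genes with values numbered 7, each with an edgeR adjusted p no higher than 1.03e-19.

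In antigen presentation, 16 of 28 tested genes were higher in Granta-519 and 9 under the JeKo-1 label, with 8 (28.6%, near the background) and 1 (3.57%) at 2-fold. Among the class I genes, B2M, the light chain of class I, was at 654, 596 and 601 CPM against 2345, 2407 and 2413 CPM (log2 difference −1.95 ± 0.04), and NLRC5, the class I transactivator, at 46.1 ± 2.89 against 176 ± 10.2 CPM. HLA-C (339 ± 14.1 against 1310.2 ± 21.1 CPM) was also higher in Granta-519, with near-identical gene copies that make its count uncertain. The class II transactivator CIITA was at 351 ± 4.78 against 261 ± 7.13 CPM, higher under the label by less than 2-fold, and the class II chaperone genes HLA-DMA (169 ± 7.36 against 101 ± 3.80 CPM) and HLA-DMB (123 ± 12.4 against 66.8 ± 0.606 CPM) were also higher there. Class II chain genes also went the other way. HLA-DRB5 (54.5 ± 9.70 against 244 ± 8.33 CPM), HLA-DQB1 (122 ± 7.18 against 208 ± 5.30 CPM) and HLA-DPA1 (569 ± 21.9 against 833 ± 2.27 CPM) were higher in Granta-519, as were HLA-DPB1 (log2 difference −0.36 ± 0.05) and HLA-DRB1 (log2 difference −0.32 ± 0.04), whereas HLA-DRA was higher under the label (log2 difference 0.21 ± 0.03). Counts of HLA-DRB1 and HLA-DRB5, near-identical copies, are uncertain too. The 12 genes with levels given here that differed passed edgeR's quasi-likelihood test at an adjusted p of 2.28e-07 or lower.

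Cell-cycle genes were divided, with 15 of 29 higher under the JeKo-1 label and 12 in Granta-519 (6 and 5 at 2-fold, 20.7% and 17.2%). The D-type cyclins, which activate CDK4 and CDK6, took opposite sides: besides CCND1, CCND2 had 0 counts under the label against 5.63 ± 0.899 CPM in Granta-519, and CCND3 was at 222, 234 and 232 CPM under the label against 31.0, 30.4 and 30.6 CPM (log2 difference 2.90 ± 0.06). CDK6 was at 342, 297 and 350.0 CPM under the label and 8.73, 7.59 and 7.66 CPM in Granta-519 (log2 difference 5.36 ± 0.07), and CDK4 at 280.0 ± 17.5 against 384 ± 4.12 CPM. E2F1, a transcription factor of S phase, was higher under the label (303 ± 11.6 against 78.2 ± 3.04 CPM). The inhibitor genes CDKN1A, which encodes p21 (32.9 ± 1.82 against 116 ± 2.48 CPM), and CDKN1B, which encodes p27 (12.1 ± 0.490 against 64.2 ± 3.45 CPM), were higher in Granta-519. All 7 genes named with values and called here had an edgeR adjusted p of 1.24e-14 or lower.

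MYC, the growth transcription factor, was at 325, 339 and 323 CPM under the JeKo-1 label and 83.9, 85.1 and 86.0 CPM in Granta-519 (log2 difference 1.95 ± 0.05). BCL2, the antiapoptotic gene, lay the other way at 22.8, 23.9 and 23.9 CPM against 584, 599 and 602 CPM (log2 difference −4.66 ± 0.05). Neither gene's libraries overlapped between the lines. How many of all tested genes had no overlap is not given here, and 79.8% of them were called different by the test. Of 13 tested genes of the MYC network 7 were higher under the label and 5 in Granta-519. At 2-fold there were 3 (23.1%) each, beside 12.8% and 26.3% of all tested genes. MNT, a MYC antagonist, was among those higher under the label (48.7 ± 2.54 against 18.8 ± 1.79 CPM). The BCL2 family was even, 7 of 16 in each direction, with 3 (18.8%) under the label and 2 (12.5%) in Granta-519 at 2-fold. MCL1 was at 328 ± 15.6 against 261 ± 4.00 CPM, BCL2L11, which encodes the killer protein BIM, at 143 ± 5.41 against 67.2 ± 2.08 CPM, and PMAIP1, which encodes NOXA, at 74.7 ± 9.58 against 401 ± 25.4 CPM. For these 6 genes the highest edgeR adjusted p was 1.24e-10.

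Central carbon metabolism leaned to the JeKo-1 label. Of 32 tested genes of glycolysis, lactate export and the pentose phosphate pathway 25 were higher under the label and 6 in Granta-519, with 10 and 3 at 2-fold and a median of 0.63. The 2-fold share under the label was 31.2%, beside 12.8% of all tested genes. ENO1, the glycolytic enolase, was at 3094, 3193 and 3055 CPM under the label and 929, 904 and 887 CPM in Granta-519 (log2 difference 1.78 ± 0.04). SLC2A5, the fructose transporter, was at 368, 382 and 365 CPM against 14.7, 17.1 and 19.2 CPM (log2 difference 4.45 ± 0.06), and the lactate transporter gene SLC16A1 at 255 ± 6.46 against 75.4 ± 1.54 CPM. SLC2A3, a glucose transporter gene, was higher in Granta-519 (1.26 ± 0.532 against 14.5 ± 1.58 CPM). Of 37 tested genes of the TCA cycle and respiratory chain 27 were higher under the label and 5 in Granta-519 (8, or 21.6%, and 2 at 2-fold, median 0.45). SDHB, a subunit of succinate dehydrogenase, was at 135 ± 6.27 against 45.3 ± 0.588 CPM and CYCS, cytochrome c, at 642 ± 18.7 against 288 ± 4.72 CPM, while IDH2 was higher in Granta-519 (120.1 ± 8.58 against 313 ± 2.26 CPM). The highest adjusted p among the 7 called genes with values was 5.54e-24 by edgeR.

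Serine, one-carbon and nucleotide genes were higher under the JeKo-1 label for 28 of 40 and in Granta-519 for 8 (12, or 30%, and 3 at 2-fold, median 0.54). Besides MTAP, CBS, the first enzyme of transsulfuration, was at 134, 139.7 and 129 CPM against 14.0, 16.4 and 14.8 CPM (log2 difference 3.15 ± 0.07). The cytosolic serine enzyme SHMT1 was at 106 ± 6.99 against 21.0 ± 1.89 CPM and IMPDH1, of guanine nucleotide synthesis, at 322 ± 17.3 against 79.3 ± 2.39 CPM, while GLDC, the glycine cleavage decarboxylase, had 1 count under the label and 5.71 ± 0.669 CPM in Granta-519. Called genes with values numbered 4, each with an edgeR adjusted p no higher than 9.25e-21.

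Genes of amino acid synthesis and transport were even, 15 of 34 higher under the JeKo-1 label and 14 in Granta-519, yet 10 of the latter and 4 of the former reached 2-fold, shares near the background (29.4% and 11.8%). Beside GLUL, which was silent under the label, the arginine synthesis gene ASS1 was at 0, 0.150 and 0 CPM there and 48.0, 47.8 and 51.1 CPM in Granta-519, a ratio of 980.0 (95% counting interval 271 to 8097) for Granta-519 over the label. ASNS, the asparagine synthetase, was at 76.3 ± 3.48 against 108 ± 3.70 CPM. Of 36 tested lipid genes 18 were higher under the label and 14 in Granta-519 (6 and 9 at 2-fold, 16.7% and 25%). FASN, the fatty acid synthase, was at 962 ± 28.2 against 457 ± 13.6 CPM, whereas the desaturase genes FADS2 (3.15 ± 0.259 against 146 ± 7.25 CPM) and FADS1 (6.52 ± 0.513 against 45.9 ± 0.293 CPM) were higher in Granta-519. The 5 genes with levels given here that differed passed edgeR's quasi-likelihood test at an adjusted p of 1.23e-12 or lower.

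Of 35 tested genes of glutathione, redox defence and drug handling, 19 were higher in Granta-519 and 15 under the JeKo-1 label, with 14 (40%) and 5 (14.3%) at 2-fold. GSTP1, a glutathione transferase, was at 0.137, 0.900 and 0.497 CPM under the label and 833, 816 and 813 CPM in Granta-519 (log2 difference −10.66 ± 0.10). PRDX2, a peroxiredoxin, was at 0.259 ± 0.242 against 198 ± 6.28 CPM, and GPX1, a glutathione peroxidase, at 48.6 ± 3.04 against 199 ± 9.62 CPM. GCLM, which limits glutathione synthesis (56.9 ± 3.85 against 14.3 ± 1.66 CPM), SRXN1 (86.2 ± 4.92 against 19.4 ± 1.15 CPM) and the mitochondrial dismutase gene SOD2 (123 ± 1.55 against 29.6 ± 1.08 CPM) were higher under the label. All 6 genes named with values and called here had an edgeR adjusted p of 1.83e-27 or lower.

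Deacetylases and chromatin regulators mutated in lymphoma were divided, 12 of 32 higher under the JeKo-1 label and 15 in Granta-519 (4 and 7 at 2-fold, 12.5% and 21.9%, near the background). Of the deacetylases that chidamide inhibits, HDAC1 was at 545, 533 and 530.5 CPM under the label and 162, 158 and 168 CPM in Granta-519 (log2 difference 1.72 ± 0.04), and HDAC2 at 203, 196 and 206 CPM against 149.8, 149.9 and 154 CPM (log2 difference 0.41 ± 0.04). HDAC3 (89.4 ± 4.04 against 85.8 ± 4.23 CPM, edgeR adjusted p = 0.311) and HDAC10 (48.1 ± 0.683 against 43.4 ± 1.46 CPM, edgeR adjusted p = 0.0689) did not pass the test. HDAC7, a class IIa deacetylase, was higher under the label (264 ± 11.0 against 31.6 ± 0.428 CPM) and HDAC5 in Granta-519 (21.0 ± 3.28 against 90.3 ± 1.88 CPM). The 2 enzymes that set new DNA methylation went opposite ways: DNMT3A was at 1.23, 0.450 and 0.745 CPM under the label and 74.7, 70.9 and 77.2 CPM in Granta-519 (log2 difference −6.48 ± 0.14), and DNMT3B at 38.9 ± 3.20 against 8.55 ± 0.533 CPM. TET2, of demethylation, was at 8.38 ± 1.39 against 63.7 ± 2.99 CPM, and TET1 was silent under the label. For these 7 genes the highest edgeR adjusted p was 1.08e-12.

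Of the defining genes of other cell types, CD3E, LYZ, HBB and EPCAM had at most 14 counts over the 3 libraries of a line. COL1A1, also of that set, was an exception, at 26.7 CPM under the JeKo-1 label and 59.6 CPM in Granta-519. Markers in the lists below were tested only with enough counts in some of the 12 libraries. A marker could thus enter through the line where it was high. The counts, shares and medians describe tested members alone and are no support for a lean of a whole list. Of 21 markers of T and natural killer cells 11 were tested, 2 higher under the JeKo-1 label and 8 in Granta-519. At 2-fold these were 2 (18.2%) and 7 (63.6%), beside 12.8% and 26.3% of all tested genes. The median of the 11 was −3.53, or −2.17 with genes at 0 counts set to the floor, and their summed level was 25.3 to 29.3 CPM under the label and 95.6 to 102 CPM in Granta-519. CD3E, a defining T-cell gene, had 4 counts under the label and 0 in Granta-519, a call lost in 11 of 13 alternatives (edgeR adjusted p from 0.026 to 0.288). In Granta-519 CD28, silent under the label, was at 39.4 ± 1.28 CPM and GATA3 at 13.1 ± 1.20 CPM. LCK, a kinase that B-cell lymphomas can also express, was at nearly equal levels, 19.8 ± 0.903 CPM under the label and 22.5 ± 0.855 CPM in Granta-519 (log2 difference −0.18 ± 0.08), a call lost in 5 of 15 alternatives (edgeR adjusted p 0.0445, up to 0.151 in the alternatives). Of 21 myeloid markers 8 were tested, 5 (62.5%) higher in Granta-519 and 2 (25%) under the label, all by at least 2-fold. Their summed levels were 5.22 to 8.82 CPM under the label and 55.6 to 57.5 CPM in Granta-519. CEBPA, a transcription factor gene silent under the label, was at 12.6 ± 0.485 CPM in Granta-519. The matrix proteoglycan gene VCAN, with 1 count under the label, was at 9.38 ± 0.137 CPM there, and the integrin gene ITGAX at 0.171 ± 0.0769 against 5.54 ± 0.961 CPM, whereas LYZ had 14 counts under the label and 2 in Granta-519. Of 17 erythroid and megakaryocytic markers 2 were tested (6.97 to 8.20 against 5.44 to 6.53 CPM) and HBB was at 0 counts in all 6 libraries. Of 21 epithelial and stromal markers 12 were tested (55.3 to 58.6 against 604 to 631 CPM), 11 higher in Granta-519, 10 of them by at least 2-fold (83.3%, beside 26.3% of all tested genes), and 1 under the label. The receptor gene PDGFRB had 1 count under the label and was at 20.2 ± 0.951 CPM in Granta-519, the cadherin gene CDH2, silent under the label, at 8.52 ± 0.710 CPM and CDH1, the epithelial cadherin, with 1 count under the label, at 2.84 ± 0.830 CPM. The sum in Granta-519 was mostly the intermediate filament gene VIM, which lymphoid cells also express, at 24.2 ± 1.44 against 507 ± 16.3 CPM, and COL1A1 was at 26.7 ± 1.79 against 59.6 ± 3.14 CPM with EPCAM at 0 counts in all 6. The part of such RNA in the other results was not tested. Of 29 cancer-testis and germline genes 10 were tested, 2 (20%) higher under the label and 4 (40%) in Granta-519, all by at least 2-fold. TKTL1 and CTCFL were silent under the label.

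By chromosome, the median log2 difference of tested genes ran from −0.49 on chromosome 8 to 0.53 on chromosome 20, and was −0.44 on chromosome X, beside −0.13 over all tested genes. These medians have no test, and copy number was not measured.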

How the data were processed

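Polyadenylated RNA was sequenced from 12 libraries, and the 6 vehicle libraries were compared. The authors deposited whole-number counts per gene symbol, aligned with STAR to hg19 per the submitters' processing notes. The counter, the annotation and whether strand was used are not given in the sources used here, so overlapping, antisense and near-identical genes are uncertain. The authors also deposited a second table, labelled as TPM, whose columns sum to 81790 to 84121 and not to a fixed total. The authors' values there are a length-scaled score, made from the deposited count divided by a gene constant and the library total, and were used only as an alternative input.

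The deposited counts entered edgeR 4.0.16 (R 4.3.3) after filterByExpr by group and TMM scaling. A robust glmQLFit held 4 group means over all 12 libraries (8 residual degrees of freedom). The contrast JeKo-1 label vehicle minus Granta-519 vehicle was tested with glmQLFTest and adjusted by Benjamini-Hochberg over 15087 of 26364 genes at 0.05. An SE is the log2 difference divided by the square root of F and is approximate. A fold against 0 counts used 3 counts over the group, and ratios with 1 to 3 counts carry 95% counting intervals. Both cover counting error only. Date-like gene names (28, with 0.26% of counts) stayed in the totals. In simulated counts of 15087 genes, 50 genes at each fold were changed, none of them at a low level. Of these, 92% at 1.5-fold and 100% at 2-fold were recovered, and 9.26% of all calls were false. Far more genes differed in the real data, so these rates need not hold there.

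Groups and replicate numbers came from the titles. Same-numbered libraries did not deviate together (r from −0.0478 to 0.058), so no block was used. The members and the 31 gene lists were chosen with earlier results of these data known, and lists are described by counts and medians with no set test. Genes were named as the 10 largest differences in each direction at 20 CPM or more, up to 4 called members of each list in each direction, a fixed set of lymphoma genes, the 10 highest silent genes of each line with all neighbouring silent genes, and defining markers of other cells. A further 44 genes, and besides them LYN, BLK and BLNK, were given as examples after their values were seen. Some genes and 1 list are not reported here. Alternatives were other scalings, count filters, DESeq2 1.42.0, limma 3.58.1 on log2 of the score plus 0.1, the 6 vehicle libraries alone, a replicate block, each vehicle library left out, and other limits for silent genes. Gene order and promoters came from RefSeq (GRCh38.p14), to which 25168 symbols matched, and no coordinate was converted between builds.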

Additional observations from a re-analysis of the deposited data

How the results depend on the processing

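No gene called under both fits changed direction in any of 15 alternatives, and the share of calls higher under the JeKo-1 label ran from 37.6% (library totals, and limma on the score) to 47.3% (stricter filter), beside 44.4%. With limma on the deposited score 1174 genes were at least 2-fold higher under the label (1932 otherwise), and with a filter of 100 counts 2283 were so in Granta-519 (3969 otherwise), of fewer genes tested. Each vehicle library left out in turn gave 5207 to 5285 genes higher under the label and 6586 to 6764 in Granta-519. The replicate block gave 5365 and 6681. The labels do not say whether equal replicate numbers pair the samples, and same-numbered libraries did not deviate together. The genes silent under the label numbered 675 at 1 CPM and 133 at 20 CPM in Granta-519, and 13 of the 349 reached 30 counts after chidamide. In Granta-519 40 were silent at 1 CPM, and 40 with up to 3 counts allowed, which gave 2 runs of neighbours. By upper-quartile and by library-total scaling the median of 3 lists changed sign: NF-kB to −0.026 and −0.0926, the BCL2 family to −0.00945 and −0.0765, and erythroid and megakaryocytic markers to −0.00948 and −0.0751. The chromosome 11 median went to −0.0668 and −0.133, and by library totals alone chromosome 13 went to −0.0518 and chromosome 3 to −0.0286. Pairs of a named gene and an alternative numbered 5107, with LYN, BLK and BLNK left out. Of these pairs, 5060 kept the side of the threshold, 42 lost the call, 5 gained it and 0 reversed. The cause of these changes was not tested. Depth limits the low end: 3 counts over a group are 0.0749 CPM under the label and 0.065 CPM in Granta-519.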
